A study of Ovis aries with 4 samples.

Results

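CSF1R, CX3CR1, P2RY12, CALCR, VSIG4, PTPRC, IKZF1 and RUNX1 are 8 genes for receptors and lineage regulators of microglia, the resident macrophages of the brain. They were taken by symbol from the deposited gene lists, where all 8 are present among 26478 genes. The samples were frozen striatum of 4 sheep aged 5 years, prepared either as whole cells freed with papain or as nuclei freed by homogenisation in a detergent buffer. Each preparation gave 2 libraries: replicate 1 pooled sheep 1 and 2, and replicate 2 pooled sheep 3 and 4, so values of single animals cannot be separated. No treatment or genotype is given in the labels. By its title, whole cells replicate 2 came from sheep 3 and 4, whereas the protocol text speaks of animals 2 and 3. Grouping followed the title.

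Microglia depend on signalling through the receptor tyrosine kinase CSF1R, whose ligands are CSF1 and IL34. CX3CR1 binds a chemokine made by neurons, and P2RY12 senses extracellular nucleotides and guides the movement of microglial processes. VSIG4 is a complement receptor of tissue macrophages, CALCR is the calcitonin receptor, and PTPRC (CD45) is a tyrosine phosphatase carried by all nucleated blood-lineage cells. IKZF1 and RUNX1 are transcription factors of blood cell development, and RUNX1 acts with the partner CBFB.

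The nuclei libraries held 70473292 and 51102420 unique molecular identifiers (UMIs, each a captured RNA molecule), and the whole cells libraries 1115058 and 19241918. Mitochondrial genes took 88.7% and 86.9% of the whole cells UMIs against 0.779% and 0.776% in nuclei, and no whole cells barcode passed the filter (200 genes or more, with mitochondrial UMIs not above 5%). Classes could therefore be made from nuclei alone. The 2 nuclei libraries shared 29 barcodes, and the other pairs of libraries shared 2 to 87. Nuclei were clustered without the 8 genes and without the pathway genes described later, and clusters were named from separate markers. The microglia-like class had 750 of 8004 nuclei in replicate 1 (9.37%) and 755 of 7716 in replicate 2 (9.78%). All 13 microglia markers in the files were detected in it in both libraries, with a summed level of 5242 and 5265 CPM (UMI counts scaled to the same total for each class and library). The other classes with at least 20 nuclei had 39.2 to 276 CPM, except astrocyte-like nuclei of replicate 2, at 402. In a lymphocyte-like class of 11 and 8 nuclei the same list summed to 3354 and 5412 CPM, with 9 and 8 of its 13 markers at 0 UMIs.

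All 8 genes were higher in microglia-like nuclei than in the mean of the other classes, and almost every microglia-like nucleus carried at least 1 of their UMIs. A UMI of any of the 8 was found in 744 of 750 microglia-like nuclei of the first replicate, or 99.2% (Clopper-Pearson 95% interval 98.3 to 99.7%), and in 746 of 755 of the second, or 98.8% (97.7 to 99.5%). Among all other nuclei the shares were 3.45% and 4.90%, although these were deeper, with medians of 2722 and 2163 UMIs against 1658 and 1388. The median microglia-like nucleus carried 4 of the 8 genes in both libraries.

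Among the receptors, CALCR stood at 2361 CPM in microglia-like nuclei of replicate 1 and 1948 in replicate 2, and 78.0% and 66.9% of these nuclei had a UMI of it. The count was uneven from nucleus to nucleus: the median was 2 and 1 UMIs, and single nuclei reached 73 and 88. Nuclei with at least 5 CALCR UMIs made up 32.4% and 19.9% of the class and held 76.2% and 68.3% of its CALCR UMIs. No other of the 8 genes passed 16 UMIs in a microglia-like nucleus.

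CSF1R was at 574.9 and 575.6 CPM, the closest pair of values among the 8 genes, with a UMI in 58.4% and 55.0% of microglia-like nuclei. VSIG4 was at 665 and 564 CPM, with a UMI in 59.7% and 49.7%. Both receptors were thus seen in about as many nuclei as IKZF1, while CX3CR1 and P2RY12 were seen in far fewer. CX3CR1 was at 59.0 and 101.8 CPM, in 9.47% and 14.0% of nuclei. P2RY12 was at 118 and 106 CPM, in 135 of 750 and 106 of 755 nuclei. These differences between genes include transcript length and capture, which were not corrected, so they give no order of expression. P2RY12 overlaps another gene, MED12L, in the RefSeq sheep annotation. MED12L itself was at 876 and 1669 CPM in microglia-like nuclei and at 14.0 to 382 in the other classes with at least 20 nuclei. Whether reads of the pair were divided in counting was not tested, and P2RY12 values are uncertain.

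PTPRC was at 337 and 392 CPM in microglia-like nuclei, with a UMI in 40.4% and 41.7%. IKZF1 was at 557 and 612 CPM, with a UMI in 56.3% and 54.0%. RUNX1 was at 1055 and 986 CPM, with a UMI in 75.6% and 69.3%. Replicates differed by less than 1.5-fold for every gene except CX3CR1.

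**Figure D1:**
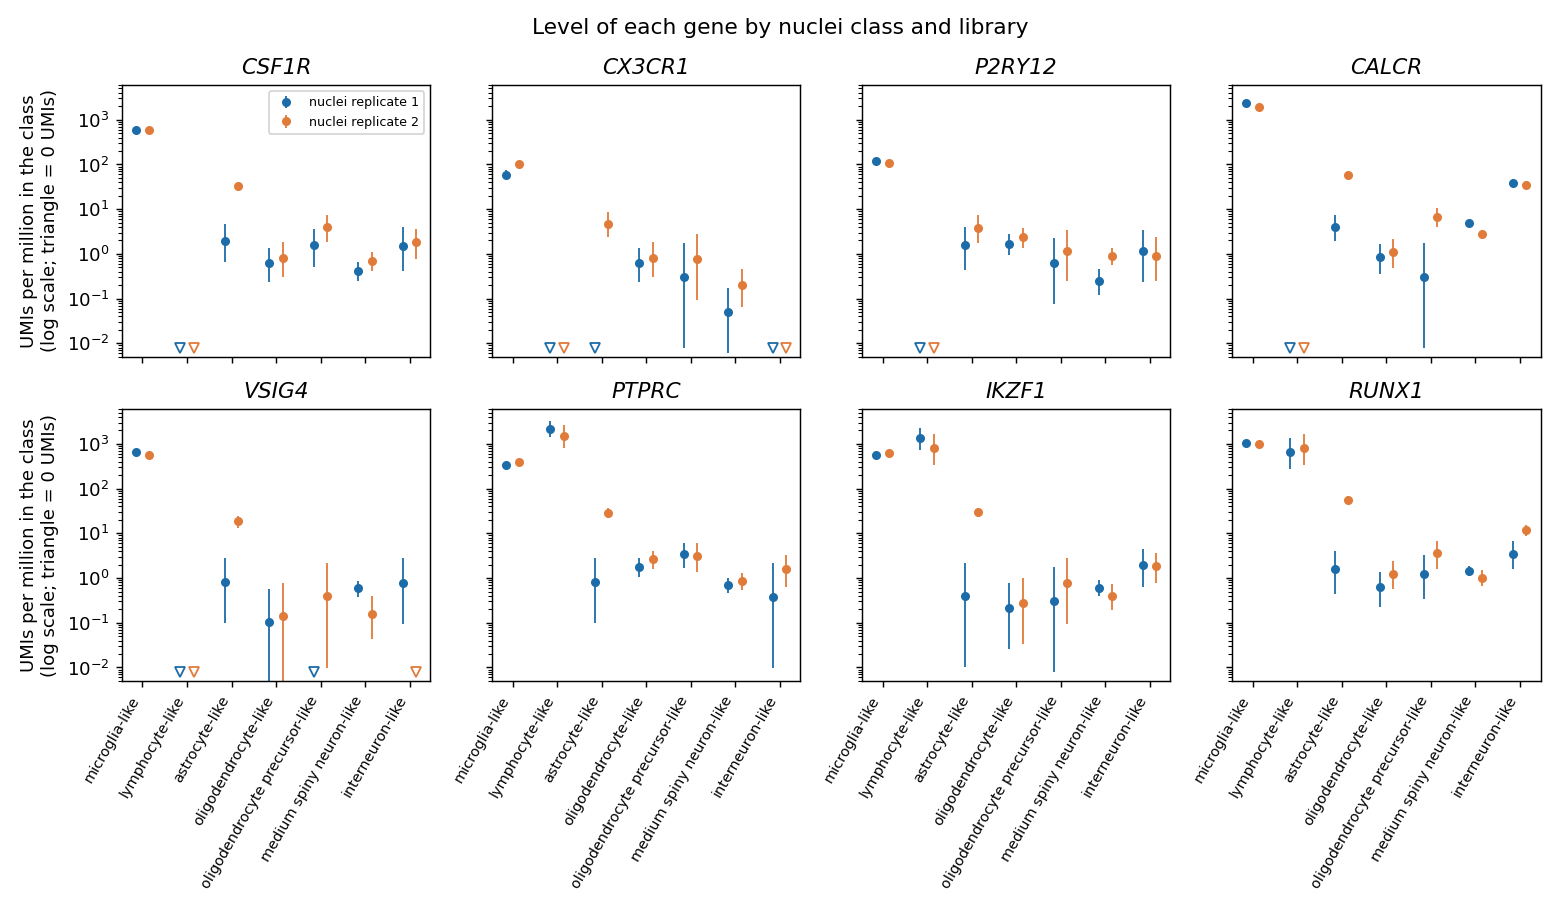
Level of each of the 8 genes (CPM, log axis) in 7 nuclei classes, with 1 point per library and exact Poisson 95% intervals. Triangles mark 0 UMIs. Microglia-like nuclei are highest for all genes but PTPRC and IKZF1, which are higher in lymphocyte-like nuclei, and the replicate 2 point of astrocyte-like nuclei lies above that of replicate 1 for all 8 genes.

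The comparison of microglia-like nuclei with the mean of 5 other classes used counts summed per library and class, with the library as a term, in edgeR's quasi-likelihood test with Benjamini-Hochberg adjustment over all genes at 0.05. In this fit 27.9% of 12906 genes were called higher and 30.8% lower, and all 8 genes were called higher. The median log2 fold change of the 8 was 7.84, against -0.09 over all genes tested. VSIG4 had the largest log2 fold change, 9.83 (SE 0.43, adjusted p = 2.1e-08), and P2RY12 the smallest, 6.13 (SE 0.26, adjusted p = 1.7e-08). CALCR was at 7.93 (SE 0.45, adjusted p = 1.1e-07) and CSF1R at 7.84 (SE 0.33, adjusted p = 1.7e-08). The 2 libraries come from pools of animals, and classes of a library share animals and droplets. With the library as a term, a difference between libraries common to all classes is taken out. The spread measured is how unevenly the classes differ between these libraries, pooled over the classes, and not that between animals.

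The same result can be read as the share of each gene's UMIs that fell in microglia-like nuclei. VSIG4 was the most concentrated, with 96.2% of its UMIs in replicate 1 and 91.8% in replicate 2. P2RY12 was the least, with 79.4% and 68.1%, followed by PTPRC with 83.1% and 76.3%. For all 8 genes the share was lower in replicate 2.

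PTPRC, IKZF1 and RUNX1 were also counted in a small lymphocyte-like cluster of 11 and 8 nuclei, which was too small for the fit. PTPRC was at 2204 and 1529 CPM there, IKZF1 at 1342 and 824, and RUNX1 at 671 and 824. CSF1R, CX3CR1, P2RY12, CALCR and VSIG4 had 0 UMIs in these nuclei in both libraries. These sums were 10435 and 8500 UMIs, in which 0 UMIs allows a level of up to 287 and 353 CPM. That limit is below the microglia-like level of CSF1R, CALCR and VSIG4 and above that of CX3CR1 and P2RY12, so a lower level of the last 2 was not detectable at this depth.

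Outside the immune classes, CALCR was called higher in interneuron-like nuclei, at similar levels in both libraries. Interneuron-like nuclei had 38.1 and 34.5 CPM of CALCR, against 0.31 to 6.70 in oligodendrocyte-like, precursor-like and medium spiny neuron-like nuclei and 3.98 and 58.3 in astrocyte-like nuclei, which in replicate 2 were above the interneuron-like ones. The log2 fold change against the mean of the other 4 classes, microglia-like nuclei left out, was 3.04 (SE 0.61, adjusted p = 0.0023 by edgeR's quasi-likelihood test), and 23.5% of all genes were called higher and 19.0% lower in this contrast. None of the other 7 genes was called in interneuron-like nuclei in this fit. RUNX1 was called higher there with only Scrublet's own doublet calls removed (log2 fold change 2.24, adjusted p = 0.0018 by edgeR), with all nuclei kept, with no filter on low counts and with IL1B-led nuclei left out. IKZF1 was called higher with all nuclei kept, and CX3CR1 and PTPRC were called lower with no filter. The CALCR UMIs all came from the interneuron-like cluster with KANK4 and FAP among its leading genes, where 7 of 98 and 15 of 155 nuclei had a UMI and single nuclei reached 27 and 43. The cluster led by NOS1, NPY and SST had 0 CALCR UMIs in 61 nuclei of each library.

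The interneuron-like nuclei with at least 5 CALCR UMIs numbered 5 and 7, and held 97 of 99 and 141 of 151 CALCR UMIs. They carried 0 and 8 UMIs of the other 7 genes in all. Microglia-like nuclei with at least 5 CALCR UMIs carried 0.734 and 0.630 UMIs of the other 7 genes per CALCR UMI, against 0 and 0.0567 in these interneuron-like nuclei. In medium spiny neuron-like nuclei 8 and 2 nuclei passed the same minimum, held 83.7% and 64.3% of the CALCR UMIs of that class, and carried 0.249 and 0.0222 UMIs of the other 7 genes per CALCR UMI.

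In astrocyte-like nuclei 7 of the 8 genes were called higher than in the other classes, with 23.2% of all genes called higher and 17.7% lower in that contrast, but the difference was far larger in replicate 2. In replicate 1 alone the log2 difference was below 0 for CX3CR1 (-0.93), PTPRC (-0.48) and IKZF1 (-0.38), and in replicate 2 alone it was 2.99, 3.75 and 4.96. For CSF1R it was 0.97 and 4.22, for CALCR 0.38 and 3.37, and for RUNX1 0.12 and 4.19. CSF1R was at 1.99 CPM in replicate 1 and 32.6 in replicate 2, CALCR at 3.98 and 58.3, and RUNX1 at 1.59 and 56.2. Microglia markers summed to 112 and 402 CPM in the same nuclei and oligodendrocyte markers to 366 and 1456. Of the 589 astrocyte-like nuclei in replicate 2, 37 fell in a cluster led by IL1B, CCL2 and IL1A when the clustering was made finer, and none of the 670 in replicate 1 did. Leaving these out, a choice made after seeing the data, CSF1R fell to 11.4 CPM in replicate 2 and 5 of the 8 genes were still called. At resolution 1.0 only CSF1R, VSIG4 and IKZF1 were called, and CALCR was not called by DESeq2 (adjusted p = 0.092). With all nuclei kept before clustering, none of the 8 was called higher in astrocyte-like nuclei and CALCR was called lower (log2 fold change -3.07, adjusted p = 0.015 by edgeR's quasi-likelihood test). The part of the microglial and oligodendrocyte RNA in this result was not tested.

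The remaining 3 classes gave 3 calls in this fit, all lower, and other settings gave further calls in both directions. In medium spiny neuron-like nuclei, with 31.0% of all genes called higher and 27.3% lower, these were CSF1R (log2 fold change -1.89, adjusted p = 0.030) and P2RY12 (-1.14, adjusted p = 0.045) by edgeR's quasi-likelihood test. In oligodendrocyte-like nuclei, with 29.7% of all genes called higher and 29.3% lower, it was CALCR (-3.42, adjusted p = 0.011 by the same test). The CALCR call was made under every tested alternative. On a log2 CPM scale, with a count added before the log, CSF1R was at -0.27 and 0.18 in medium spiny neuron-like nuclei. Oligodendrocyte-like nuclei had -0.03 and 0.17, interneuron-like and precursor-like nuclei 0.89 to 2.09, and astrocyte-like nuclei 1.06 and 4.80. The CSF1R and P2RY12 calls were lost with all nuclei kept (adjusted p = 0.93 and 0.32 by edgeR) and with only Scrublet's own doublet calls removed (0.68 and 0.26), a setting in which the cluster led by astrocyte genes stayed unnamed, so the contrast was against fewer classes as well. The P2RY12 call was also lost with 4000 variable genes, at resolution 1.0 and without the library as a term (adjusted p = 0.052, 0.14 and 0.072 by edgeR). CX3CR1 was called higher in oligodendrocyte-like nuclei under 5 alternatives (both of these doublet settings, resolution 1.0, no filter on low counts, and IL1B-led nuclei left out), and P2RY12 with no filter. In medium spiny neuron-like nuclei VSIG4 was called higher in both doublet settings, and CALCR and IKZF1 with all nuclei kept. PTPRC was called lower there with DESeq2, at least 500 genes per nucleus, library size alone, no filter and IL1B-led nuclei left out. RUNX1 was called lower there with no filter. In oligodendrocyte-like nuclei CSF1R and RUNX1 were called lower with DESeq2, all nuclei kept, no filter and IL1B-led nuclei left out. IKZF1 was called lower in both doublet settings and with no filter, and RUNX1 with only Scrublet's own calls removed. In oligodendrocyte precursor-like nuclei, with 19.8% of all genes called higher and 16.6% lower, none of the 8 was called by edgeR, at an adjusted or an unadjusted p under 0.05, or by DESeq2, and CALCR was called lower with only Scrublet's own calls removed (-1.56, adjusted p = 0.041 by edgeR) and with no filter on low counts.

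The pathways around the 8 genes were described with 61 further genes in 4 roles, of which 56 are in the files and 46 were tested. Of these, 36 were called higher in microglia-like nuclei, 5 lower and 5 neither, with a median log2 fold change of 3.40. Neither of the ligands of CSF1R was called higher. IL34 had 2 and 0 UMIs in microglia-like nuclei and 455 and 226 in all other nuclei, 7.93-fold higher in the others (exact 95% interval for counting error 2.19 to 65.6), and was called lower (adjusted p = 7.6e-04 by edgeR's quasi-likelihood test). CSF1 had 2 and 5 UMIs in microglia-like nuclei and was not called (log2 fold change -1.22, adjusted p = 0.094 by edgeR).

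Of 15 receptors and receptor partners tested, 12 were higher, 2 lower and P2RX7 was not called, with a median of 5.12. The largest log2 fold changes were those of the complement receptor C3AR1 (8.36, not called by DESeq2, adjusted p = 0.068), the integrin ITGAM (8.30) and the lipid-sensing receptor TREM2 (7.58). The smallest among the higher were P2RX4 (1.17), an ATP-gated channel, CALCRL (1.94), the calcitonin receptor-like receptor, and RAMP2 (2.11), a partner of such receptors. The other 2 RAMPs were lower. RAMP1 was at 9.71 and 5.13 CPM in microglia-like nuclei against 27.0 and 25.5 in all others (log2 fold change -2.28, adjusted p = 7.8e-05 by edgeR). RAMP3 had 0 UMIs in microglia-like nuclei and 842 in the others over both libraries, at least 6.54-fold higher there, with 3 counts over both libraries in place of 0, and the call was lost with all nuclei kept and at resolution 1.0 (adjusted p = 0.21 and 0.29 by edgeR). RAMPs turn the calcitonin receptor into receptors for amylin, and in microglia-like nuclei only RAMP2 of the 3 was called higher.

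Of 12 signalling genes tested, 11 were higher and FYN was lower (log2 fold change -0.57, adjusted p = 0.0052 by edgeR), with a median of 3.84. The lipid phosphatase INPP5D (6.999) and the Src-family kinase LYN (6.08) were among those with the largest changes. PLCG2 (1.31), the adaptor GRB2 (1.90) and the G protein subunit GNAI2 (2.01) had the smallest among the higher. FYN was at 207 and 127 CPM in microglia-like nuclei against 154 and 155 in all others, so the libraries differed in direction on that scale. The FYN call was lost with library size alone as the scale (adjusted p = 0.47 by edgeR).

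Of 17 transcription factors tested, 13 were higher, RUNX1T1 was lower (-1.81, adjusted p = 1.9e-06 by edgeR), and IKZF2, RUNX2 and RUNX3 were not called, with a median of 3.46. FLI1 (8.44), IRF8 (8.07) and SPI1 (6.74), regulators of myeloid cells, had the largest changes. The RUNX partner CBFB was among the smallest of the higher at 2.14, with IKZF5 (0.94) and MEF2A (2.99). Within the Ikaros family, IKZF1 and IKZF3 (5.58) were far higher and IKZF2 was not called (-0.16, adjusted p = 0.23 by edgeR). Within the RUNX family, RUNX1 alone of the 3 was called.

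**Figure D2:**
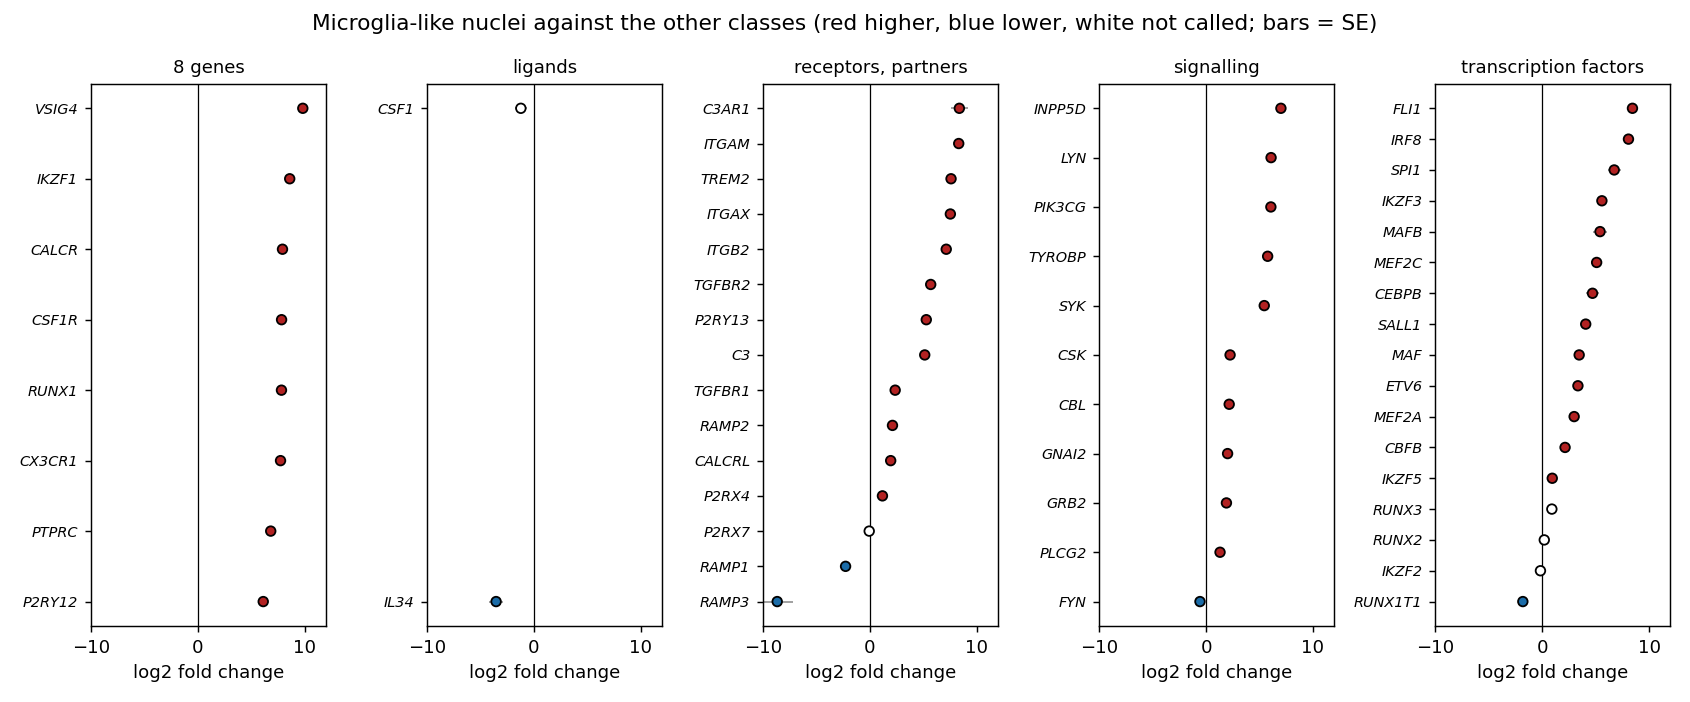
Log2 fold change (points, with SE bars) of the 8 genes and of tested pathway genes in microglia-like nuclei against the mean of the other classes, by role. All 8 genes lie above 6, while the ligands lie below 0 and RAMP3, with 0 UMIs in microglia-like nuclei, has a fitted value that is no measure of its fold.

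The genes whose levels followed the 8 most closely over the 12 sums of class and library were found by Pearson's r, as a description, since the sums share libraries and the microglia-like class alone sets most of the pattern. For CSF1R they were BCO2 (0.997), FLI1 (0.993) and BATF3 (0.988). For CALCR they were CERK (0.984), ATP2A3 (0.981) and PLA2G4A (0.973), and CALCR had the fewest genes above 0.95, 6 of 11087, against 44 to 94 for the other 7. CX3CR1 was closest to FCGR3A (0.988), RNASET2 and CD180, and P2RY12 to ASAH1 (0.987), CCRL2 and IFNGR1. VSIG4 was closest to FLI1 (0.987), BATF and C5AR1, and PTPRC to CLEC5A (0.986), FERMT3 and TFEC. IKZF1 was closest to CYTH4 (0.995), PIK3R6 and SLA, and RUNX1 to CYTH4 (0.985), ARHGAP15 and ATP2A3.

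A second immune cluster carried a different mix of the 8 genes. It appeared when only Scrublet's own doublet calls were removed, was led by MSR1, SLC40A1 and CD163, and had 80 and 26 nuclei beside a microglia-like cluster of 734 and 847. This comparison was chosen after the clusters were seen. The 3 perivascular macrophage markers in the files summed to 354 and 734 CPM in it, against 18.4 and 26.9 in the microglia-like cluster, and medium spiny neuron markers to 3560 and 2698 against 1197 and 1066. Oligodendrocyte precursor markers summed to 878 and 2380 CPM against 177 and 284, and interneuron markers to 2285 and 516 against 665 and 1083. In the main clustering 24 of the 80 and 10 of the 26 nuclei had been removed for high doublet scores, against 38 of 734 and 109 of 847. The part of RNA of these other cells in its values was not tested.

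CALCR was at 783 and 298 CPM in the MSR1 and CD163 cluster against 2359 and 1690 in the microglia-like cluster, and in 22.5% and 30.8% of nuclei against 83.7% and 68.2%. P2RY12 was at 37.0 CPM and 0 against 111.5 and 87.8. IKZF1 was at 243 and 278 CPM against 538 and 522. For these 3 genes both libraries were lower, and all 3 were called: by edgeR's quasi-likelihood test the log2 fold changes were -1.95 for CALCR (SE 0.27, adjusted p = 3.5e-11), -1.92 for P2RY12 (SE 0.56, adjusted p = 0.012) and -1.08 for IKZF1 (SE 0.29, adjusted p = 0.0043). Of 8299 genes, 2.12% were called lower and 5.34% higher.

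CX3CR1 was at 21.2 CPM and 0 against 59.3 and 86.6 and missed the threshold (adjusted p = 0.056 by edgeR). CSF1R was at 413 and 436 CPM against 542 and 480, and RUNX1 at 1079 and 952 against 959 and 816. Neither they nor VSIG4 and PTPRC were called, with log2 fold changes from -0.32 to 0.16. VSIG4 was lower in replicate 1 (407 against 616 CPM) and higher in replicate 2 (754 against 451). Without the library as a term none of the 3 calls was kept (adjusted p for CALCR = 0.062), and with DESeq2 CALCR alone was (adjusted p = 0.0019). In the finer clustering, where the cluster had 53 and 15 nuclei, CALCR was the only call, at 127 and 45.3 CPM against 2515 and 1985 (log2 fold change -4.55, adjusted p = 3.3e-21 by edgeR). With all nuclei kept, a second microglia-like cluster led by IL1B and MSR1 had 229 and 263 nuclei, of which 167 and 176 had high doublet scores. All 8 genes were called lower in it than in the other microglia-like nuclei by edgeR's quasi-likelihood test, with 18.8% of 9578 genes called lower and 25.0% higher, and log2 fold changes from -2.09 for P2RY12 to -1.34 for RUNX1. Oligodendrocyte markers summed to 2812 and 3866 CPM in it and microglia markers to 2180 and 1416, and the part of other cells' RNA in these values was not tested.

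**Figure D3:**
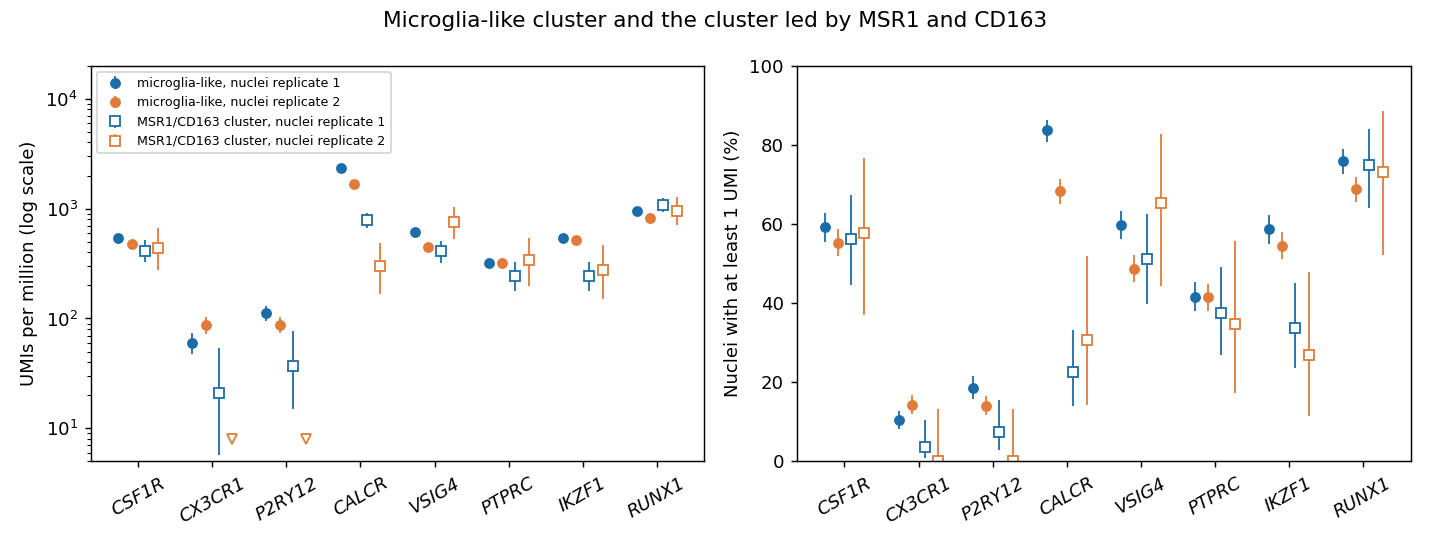
Level (left, CPM, log axis) and share of nuclei with a UMI (right, %) of the 8 genes in the microglia-like cluster (filled circles) and the cluster led by MSR1 and CD163 (open squares), by library, with exact 95% intervals for counting error. Triangles mark 0 UMIs. CALCR lies between 298 and 783 CPM in the MSR1 and CD163 cluster and between 1690 and 2359 in the microglia-like cluster.

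The series sets nuclei against whole cells, and the 8 genes were compared over all deposited barcodes of each library. Whole cells held few of their UMIs: 7 in replicate 1 and 152 in replicate 2, so most of the comparison rests on the latter. With mitochondrial UMIs left out of the totals, on the CPM scale, CALCR was at 64.5 and 67.8 in nuclei and at 0 and 4.78 in whole cells. VSIG4 was at 16.8 and 18.4 in nuclei and at 7.94 (1 UMI) and 0.80 (2 UMIs) in whole cells. IKZF1 was at 14.8 and 21.6 in nuclei and at 7.94 (1 UMI) and 2.39 in whole cells. RUNX1 was at 28.9 and 35.9 in nuclei and had 0 UMIs in both whole cells libraries. For these 4 genes the lower nuclei value exceeded the higher whole cells value.

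P2RY12 was the exception, at 3.50 and 4.60 in nuclei against 0 and 19.1 in whole cells, the latter from 48 UMIs in 48 barcodes. The 0 in whole cells replicate 1 allows up to 23.8. CSF1R was at 14.3 and 20.1 in nuclei against 23.8 (3 UMIs) and 15.1 in whole cells, PTPRC at 10.0 and 15.0 against 15.9 (2 UMIs) and 15.1, and CX3CR1 at 1.66 and 3.51 against 0 and 3.18. The preparations overlapped for P2RY12, CSF1R and CX3CR1, and both nuclei values of PTPRC lay below both whole cells values.

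In edgeR's quasi-likelihood test 29.8% of 15781 genes were called higher in nuclei and 22.4% lower. CALCR (log2 fold change 3.73, SE 0.57, adjusted p = 1.9e-06), VSIG4 (3.71, SE 0.80, adjusted p = 2.3e-04), IKZF1 (2.55, SE 0.66, adjusted p = 0.0017) and RUNX1 were called higher by that test. VSIG4 rests on 3 whole cells UMIs, and its share was 15.4-fold higher in nuclei (exact 95% interval for counting error 5.25 to 74.6). By pool it was 2.12-fold for sheep 1 and 2 (0.379 to 83.6, which includes equal shares) and 23.1-fold for sheep 3 and 4 (6.38 to 191). For IKZF1 it was 1.87-fold (0.335 to 73.9, with 1 whole cells UMI) and 9.03-fold (4.13 to 24.7). RUNX1 was at least 28-fold higher in nuclei, with 3 counts over both whole cells libraries in place of 0. That limit rests on whole cells replicate 2: it was 1.21-fold in the pool of sheep 1 and 2 and 30.1-fold in the pool of sheep 3 and 4, and for CALCR it was 2.71-fold in the first pool. P2RY12 was called lower (-2.15, SE 0.55, adjusted p = 0.0015 by edgeR). CSF1R (-0.05), CX3CR1 (-0.36) and PTPRC (-0.42) were not called.

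The P2RY12 call was lost with the animal pool as a block (adjusted p = 0.12 by edgeR), and its direction turned with library size alone as the scale (log2 fold change 1.01, adjusted p = 0.16 by edgeR). That scale moved the median of all genes by 3.06, to 3.66, and on it 12537 of 15781 genes were called higher. CSF1R (3.03), CX3CR1 (2.77) and PTPRC (2.67), all below that median, were called higher too. Without whole cells replicate 2 only CALCR and RUNX1 were called, from a whole cells arm of 1 library with 0 UMIs of both, whose spread was taken from the nuclei libraries. Without either nuclei library IKZF1 was not called, and without nuclei replicate 1 P2RY12 was not (adjusted p = 0.064 by edgeR). Whole cells were counted with Cell Ranger 6.0.1 and nuclei with 7.0.0, so the preparation and the program version cannot be told apart.

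**Figure D4:**
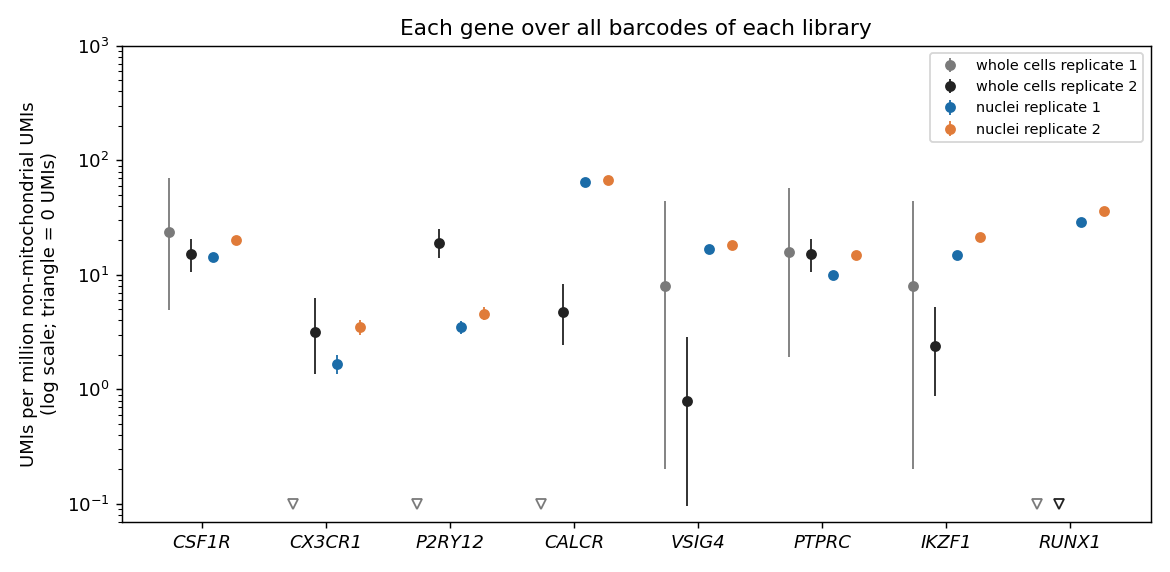
Level of the 8 genes over all barcodes of each of the 4 libraries (CPM of non-mitochondrial UMIs, log axis), with exact Poisson 95% intervals. Triangles mark 0 UMIs. CALCR and RUNX1 of both nuclei libraries lie above whole cells replicate 2, whole cells replicate 1 has 0 UMIs of both, and P2RY12 of whole cells replicate 2, at 19.1, lies above both.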

How the data were processed

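Striatal whole cells (2 libraries) and nuclei (2 libraries) were analysed from the authors' deposited matrices of raw UMI counts. Per the file headers these came from Cell Ranger 6.0.1 (whole cells) and 7.0.0 (nuclei), and the submitters' processing notes also name Cell Ranger 2.1.1 and STAR 2.7.2a. Genome build, annotation and the counting of introns are not given in the sources used here. Nuclei with fewer than 200 genes or over 5% mitochondrial UMIs were left out. The 8% with the highest Scrublet scores were removed per library, since Scrublet's own threshold called 390 of 8700 and 0 of 8388. Clustering used scanpy 1.11.5 (2000 variable genes without the 8 genes and pathway genes, 30 components, 15 neighbours, resolution 0.5). Clusters were named by the marker list with the largest number of genes raised 2-fold over the median cluster and seen in 5% of nuclei. At least 3 genes were needed, and no fewer raised than not raised in the list. A cluster stayed unnamed when lists tied or when more of its leading genes came from another list. It also did when its UMIs were low and none of its leading genes came from the list. By the leading-gene rule the MSR1 and CD163 cluster stayed unnamed, with 12 of 13 microglia markers raised. The naming rules were set after the clusters were seen. Counts summed per library and class were tested with edgeR 4.0.16 (TMM, filterByExpr, Benjamini-Hochberg at 0.05). The test was checked on counts simulated with a spread set by hand, not estimated from these data. That check required no minimum recovery for the MSR1 and CD163 comparison. DESeq2 1.42.0, other scalings, filters, clusterings and left-out libraries were alternatives. Intervals (95%) and the limit of 3 counts for a 0 cover counting error only. The genes and lists were chosen with earlier results of these data known. Named were the 8 genes, per role the 3 largest and 3 smallest called changes and those lower, and the 3 genes most like each. Libraries are paired by animal pool through their titles, and over 1430 genes the departures of a pool's nuclei and whole cells from the preparation means correlated at -0.17. Labels do not say whether replicates are separate preparations beyond the animal pools. A gene of the signalling role and a leading gene of a cluster that these rules would name are not reported here.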

Additional observations from a re-analysis of the deposited data

Results flagged for a closer look

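CSF1R gave opposite ratios in the animal pools. In the pool of sheep 1 and 2 its share of non-mitochondrial UMIs was 0.602 times as high in nuclei as in whole cells (exact 95% interval 0.205 to 2.92, 3 UMIs in whole cells), and in the pool of sheep 3 and 4 it was 1.33 times as high (0.962 to 1.89), a log2 ratio of 0.41. This contrast of pools was not tested, and both intervals include equal shares.

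In astrocyte-like nuclei 3 of the 7 genes called higher had opposite directions in the replicates: the log2 differences in replicate 2 were 2.99 for CX3CR1, 3.75 for PTPRC and 4.96 for IKZF1, against -0.93, -0.48 and -0.38 in replicate 1. This was not tested either.

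Nuclei removed for high doublet scores, which enter none of the comparisons between classes of the main clustering, also held the 8 genes. The comparison with whole cells, over all barcodes, does include them, and that of the MSR1 and CD163 cluster includes part of them. A UMI of any of them was found in 233 of 696 removed nuclei in replicate 1 (33.5%) and in 236 of 672 in replicate 2 (35.1%). With all nuclei kept, a microglia-like cluster led by IL1B held 229 and 263 nuclei, of which 167 and 176 were among those removed.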

How the results depend on the processing

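All 8 genes were called higher in microglia-like nuclei under each of the 12 tested alternatives, and library size alone moved the median of all genes in that fit by 0.44. The 36 higher and 5 lower pathway genes stayed within 1.5 times in number, and FYN turned without nuclei replicate 2 (0.13, and -0.44 without replicate 1, no test). In the other classes 8 higher calls became 5 at resolution 1.0 and 4 with only Scrublet's own calls removed, where the astrocyte-led cluster was unnamed and not tested. Outside astrocyte-like nuclei the 1 higher call, CALCR in interneuron-like nuclei, became 4 in that setting (RUNX1, VSIG4 and CX3CR1 added), 7 with all nuclei kept (interneuron-like CALCR, IKZF1 and RUNX1, medium spiny neuron-like CALCR, VSIG4 and IKZF1, oligodendrocyte-like CX3CR1), 4 without a filter on low counts and 3 with IL1B-led nuclei left out. The 3 lower calls became 6 with DESeq2, 5 with all nuclei kept, 11 without a filter on low counts and 6 with IL1B-led nuclei left out, although the medium spiny neuron-like calls of CSF1R and P2RY12 were lost with all nuclei kept. Astrocyte-like directions turned with all nuclei kept for CALCR (-3.07), IKZF1 (-1.06), PTPRC (-0.65), RUNX1 (-0.69) and VSIG4 (-0.67), and without nuclei replicate 2 for CX3CR1 (-0.93), IKZF1 (-0.38) and PTPRC (-0.48), which were 2.99, 4.96 and 3.75 without replicate 1. In the MSR1 and CD163 cluster the 3 lower calls became 1 with DESeq2, 0 with no replicate block and 1 at resolution 1.0. With all nuclei kept, where the second microglia-like cluster is one led by IL1B and MSR1, all 8 were called lower, and RUNX1 turned (-1.34). The cause was not tested.

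For nuclei against whole cells the 4 higher calls became 7 with library size alone, where 12537 of all 15781 genes were called higher. They ranged from 2 to 4 with a library left out. The 1 lower call, P2RY12, ranged from 0 to 1 with a library left out. It became 0 with DESeq2, with barcodes of at least 200 genes (0.87), with library size alone (1.01) and with the replicate block by animal pool, which changed no other call of the 8 genes. Its direction also turned without whole cells replicate 2 (10.33, from 0 UMIs in the remaining library), against -2.34 without whole cells replicate 1. CSF1R (3.03), CX3CR1 (2.77) and PTPRC (2.67) turned with library size alone. The crossed pairing, chosen after seeing the data, gave 4 higher and 0 lower calls (crossed replicate block). The share of microglia-like nuclei, 9.58%, was 11.3% with all nuclei kept and 9.13% with 4000 variable genes. The share of them with any of the 8 genes, 99.0%, was 98.0% at 1000 UMIs per nucleus. The latter leaves out the nuclei below that depth, 63 of 750 and 153 of 755. Depth limits the whole cells values of RUNX1 (0 UMIs over both libraries), VSIG4 (3), IKZF1 (7) and CX3CR1 (8). The planned comparison between microglia-like clusters could be made only with all nuclei kept. The other clusterings had 1 cluster named microglia-like with at least 20 nuclei in each library. The MSR1 and CD163 cluster of 80 and 26 nuclei was not counted, since its leading genes kept it unnamed although 12 of 13 microglia markers were raised.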

Other observations

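In the cluster led by IL1B that forms with all nuclei kept, the share of nuclei with a CSF1R UMI was 54.1% and 57.8% and that of RUNX1 75.5% and 69.6%, while CSF1R was at 201 and 142 CPM and RUNX1 at 497 and 254. In the other microglia-like nuclei of the same clustering CSF1R was at 572 and 588 CPM and RUNX1 at 1019 and 999.96. The IL1B cluster was deeper, with medians of 3610 and 4296 UMIs, and its microglia markers summed to 2180 and 1416 CPM. Markers of other cells summed to 2812 and 3866 CPM for oligodendrocytes, 2983 and 2773 for interneurons, 2671 and 3375 for oligodendrocyte precursors, 1769 and 1377 for medium spiny neurons and 1487 and 1700 for astrocytes. The part of RNA of these cells in the levels of CSF1R and RUNX1 was not tested.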
